A study of Mus musculus with 6 samples.

Results

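The genes described here encode the constitutive proteasome, the protease that degrades ubiquitin-tagged proteins in every cell. Members were all probes of an Agilent mouse array whose RefSeq accession maps to a symbol that begins with Psma, Psmb, Psmc or Psmd and a digit, without the immunoproteasome genes Psmb8, Psmb9 and Psmb10. The rule took 45 of 39429 probes and 37 of 20659 named genes. Of the 37 genes, 34 encode subunits or chaperones of the particle and were measured above background; the other 3 are Psma8, Psmb11 and Psmc3ip, given apart below. Heart ventricles came from female C57BL/6N mice, 21 weeks old. The sleep fragmented group had its sleep interrupted for 5 weeks (3 arrays) and the control group was left undisturbed (3 arrays). The comparison asked which heart genes differ after chronic sleep fragmentation. The labels do not say whether each array had its own mouse, so the spread behind every p-value is that of these samples and could be technical.

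The proteasome is built from a barrel-shaped core particle and a regulatory particle that caps it. The core has outer rings of alpha subunits, which gate the entrance, and inner rings of beta subunits, of which Psmb5, Psmb6 and Psmb7 carry the proteolytic sites. The regulatory particle has a base, where a ring of ATPases (Psmc genes) unfolds the substrate, and a lid (most Psmd genes), where Psmd14 removes the ubiquitin chain. In heart muscle the proteasome turns over sarcomere and signalling proteins.

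The share of probes well above background ran from 59.2% (sleep fragmented replicate 1) to 72.6% (sleep fragmented replicate 3). Ventricular muscle genes (8 of 8 fixed markers) were measured on every array. Their summed signal, scaled by each array's 75th percentile, was 1174, 681 and 797 on sleep fragmented replicates 1 to 3. On control replicates 1 to 3 it was 847, 688 and 827. Sleep fragmented replicate 1, the highest, also had the lowest 75th percentile signal, 123 against 204 to 252 on the other arrays. The part of this in the results below was not tested. The summed signal of the 3 atrial markers above background, as a multiple of each array's 75th percentile, was 32.5, 297 and 61.0 on sleep fragmented replicates 1 to 3, against 15.3, 213 and 53.5 on control replicates 1 to 3, so replicate 2 of either group stood apart in these markers. The summed signal of the 4 erythroid markers was 398, 263 and 164 on the sleep fragmented arrays, against 108, 120 and 104 on the controls. All 4 (Alas2, Hba-a1, Hbb-bs and Hbb-bt) were higher on every sleep fragmented array than on any control, at 1.94- to 4.06-fold (adjusted p = 0.938 for each), and the part of blood cells in the results below was not tested. The sleep fragmented arrays shared one scan and the controls a different one, so scan and group cannot be told apart. In bulk tissue, fewer cells of a type and less RNA per cell cannot be told apart either.

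No proteasome gene passed the test of a difference between the groups. Of all 25221 probes kept after the filter on dim spots, 0 (0%) had a limma adjusted p under 0.05, and the smallest adjusted p of a member was 0.938. Before adjustment, 0 of the 34 members reached p under 0.05, where 2.96% of 14550 genes passed (2.91% of all kept probes). The lowest unadjusted p of a member was 0.199, for Psmb7. The largest difference was 1.20-fold (Psmb2, lower in sleep fragmented hearts). The log2 fold changes of the 34 genes, sleep fragmented over control, lay between -0.26 and 0.11. Their median was -0.04, against 0.05 over all genes. The genes with the brightest 25% of probes, which held 24 of the 34 members, had a median of -0.05, near that of the members. The middle 50% of the members spanned 0.12 on the log2 scale, against 0.32 for all genes and 0.21 for the brightest 25%.

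A p above the threshold does not show equality, so the 95% intervals of the differences are given. For 27 of the 34 members the whole interval lay within 1.5-fold either way; this held for 36.0% of all genes and for 53.4% of the brightest 25%. The 7 exceptions were Psma4, Psmb1, Psmb2, Psmb7, Psmc6, Psmd4 and Psmd14. The widest bound was that of Psmb2, whose interval reached down to a 1.74-fold decrease. The standard errors ran from 0.17 to 0.24 (moderated, n = 3 arrays per group). The median residual SD within groups was 0.15 for the members, against 0.26 for all genes and 0.20 for the brightest 25%.

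**Figure D1:**
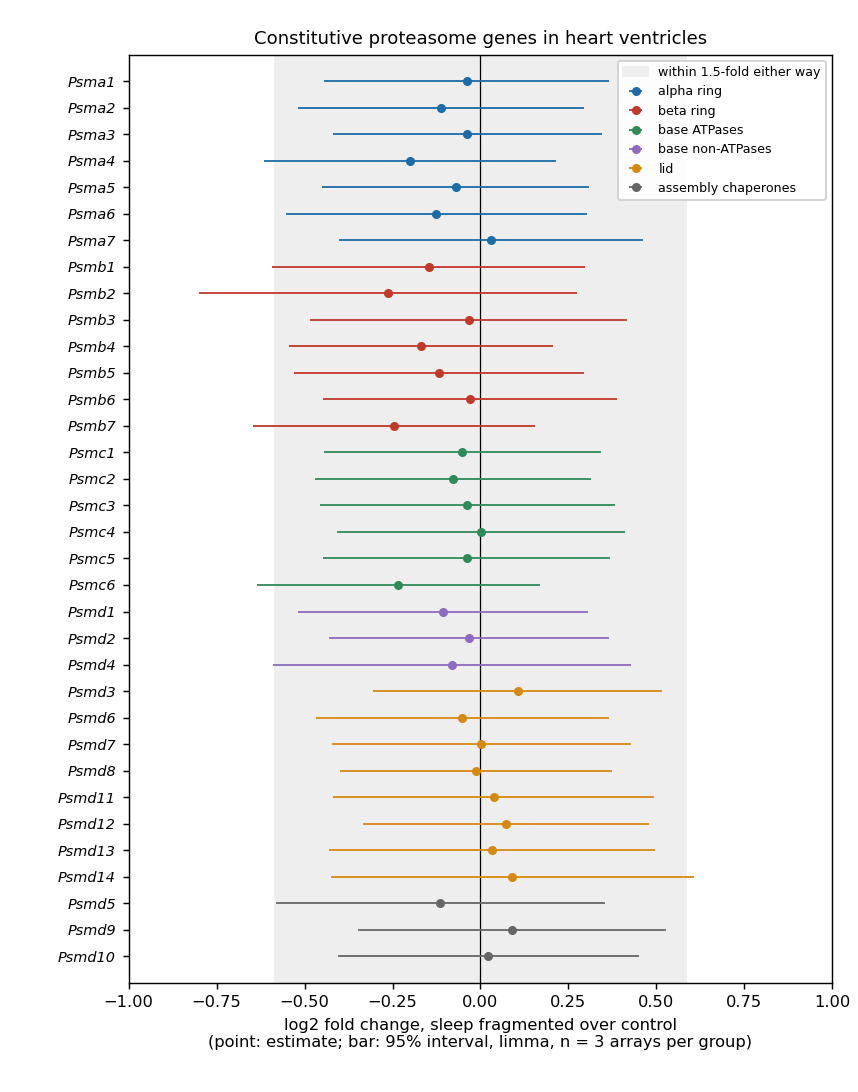
Log2 fold change of each of the 34 genes (sleep fragmented over control, horizontal axis) with its 95% interval from limma, coloured by place in the particle; the grey band marks 1.5-fold either way. All 34 intervals cross 0, 27 lie inside the band, and the 7 beta ring points all lie left of 0.

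Levels below are log2 signals relative to the 75th percentile of their own array, in the order of replicates 1, 2 and 3. They can be compared between arrays for one probe, not between genes.

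The 3 catalytic genes had negative log2 fold changes of different size. Psmb5, which encodes the subunit with chymotrypsin-like activity, stood at 5.36, 4.98 and 5.29 in sleep fragmented hearts, against 5.31, 5.28 and 5.40 in control hearts. The groups overlapped, and sleep fragmented replicate 2 was the lowest array (log2 fold change -0.12 ± 0.18, SE; adjusted p = 0.944). Its other probe, which was dimmer, had a log2 fold change of -0.01. Psmb6, for the caspase-like subunit, stood at 5.66, 5.29 and 5.31 in sleep fragmented hearts, against 5.53, 5.40 and 5.41 in control hearts. The sleep fragmented arrays held both the highest and the lowest value, and the log2 fold change was -0.03 ± 0.18 (adjusted p = 0.984). Psmb7, for the trypsin-like subunit, stood at 0.15, 0.19 and 0.44 in sleep fragmented hearts, against 0.55, 0.42 and 0.54 in control hearts. One sleep fragmented array, replicate 3, lay above the lowest control, and the difference of -0.25 ± 0.18 had an interval of -0.65 to 0.16, that is, up to a 1.57-fold decrease or a 1.11-fold increase.

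Nfe2l1, a transcription factor that raises proteasome gene expression when proteasome activity is short, acts through antioxidant response elements. The core of such an element, TGACNNNGC, was searched on both strands. Where it lies wholly within the 60 bases before a member's start in the promoter table, those bases are shown, with the motif in capitals. Of these 3 members 2 are catalytic genes. The share of all genes with the motif in these 60 bases is not given, so no link to the catalytic genes is read from this. Sequences are from RefSeq's promoters of GRCm38.p6, on the gene's strand, for Psmb5 at chr14:54617996-54618055 (minus strand), Psmb6 at chr11:70525297-70525356 (plus strand) and Psmd9 at chr5:123228130-123228189 (plus strand). For Psmb6 the start in the promoter table differs from that in the gene table, so its stretch is placed by the promoter table alone.
Psmb5: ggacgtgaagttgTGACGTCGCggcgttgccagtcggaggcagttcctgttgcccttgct
Psmb6: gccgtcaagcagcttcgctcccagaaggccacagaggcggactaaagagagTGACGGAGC
Psmd9: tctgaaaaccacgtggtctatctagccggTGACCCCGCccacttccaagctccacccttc

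Of the 37 genes, 30 had an entry in the promoter table. In the window from 250 bases before to 50 after the start the motif occurred in 5 of the 30 (Psmb5, Psmb6, Psmc6, Psmd9 and Psmd12), which is 16.7%, against 14.0% of all 27025 genes with an entry. A CCAAT box, searched on both strands as CCAAT, occurred in 13 of the 30 (43.3%), against 41.1% of all genes. Both shares were near the background, and a match describes letters, not binding. The 5 genes with TGACNNNGC had log2 fold changes from -0.23 (Psmc6) to 0.09 (Psmd9). Nfe2l1 itself had a log2 fold change of 0.09 ± 0.25 (adjusted p = 0.964).

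The other 4 beta genes encode non-catalytic subunits of the inner rings. Psmb2 stood at 6.09, 5.32 and 6.09 in sleep fragmented hearts, against 6.02, 6.17 and 6.09 in control hearts. Sleep fragmented replicate 2 lay 0.70 below the next lowest array, the widest gap of any member, and the other 5 arrays lay close together. The log2 fold change was -0.26 ± 0.24 (adjusted p = 0.938), and without that array it was -0.01. Psmb4 stood at 4.55, 4.45 and 4.54 in sleep fragmented hearts, against 4.71, 4.68 and 4.65 in control hearts. The groups did not overlap, with means of 4.51 ± 0.06 in sleep fragmented hearts and 4.68 ± 0.03 in control hearts (SD, n = 3 each), but the difference was 1.12-fold (-0.17 ± 0.17, adjusted p = 0.938). Psmb1 and Psmb3 had log2 fold changes of -0.15 ± 0.20 and -0.03 ± 0.20. All 7 beta ring genes were thus negative, with a median of -0.15; 41.3% of all genes and 62.0% of the brightest 25% were negative. Without sleep fragmented replicate 2 the beta ring median was -0.0074.

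The alpha ring forms the gate of the core. Psma4 stood at 1.33, 1.27 and 1.23 in sleep fragmented hearts, against 1.38, 1.72 and 1.34 in control hearts. The groups did not overlap, by a margin of less than 0.01, and control replicate 2 stood above the rest (log2 fold change -0.20 ± 0.18, adjusted p = 0.938). On its other probe, Psma4 had 0.38, 0.30 and 0.55 in sleep fragmented hearts, against 0.17, 0.52 and 0.65 in control hearts, which overlapped (-0.04). Psma3, another alpha ring gene, stood at 5.17, 4.96 and 5.10 in sleep fragmented hearts, against 5.10, 5.11 and 5.14 in control hearts (-0.04 ± 0.17). It was chosen after its values were seen. The remaining alpha genes had log2 fold changes of -0.04 (Psma1), -0.11 (Psma2), -0.07 (Psma5), -0.13 (Psma6) and 0.03 (Psma7). Over the ring the median was -0.07, with 6 of 7 negative.

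The 6 ATPases of the base form the ring that pulls substrates into the core. Psmc6 stood at 3.42, 3.59 and 3.72 in sleep fragmented hearts, against 3.91, 3.79 and 3.72 in control hearts. The groups did not overlap, though sleep fragmented replicate 3 and control replicate 3 were less than 0.01 apart (log2 fold change -0.23 ± 0.18, adjusted p = 0.938). The other 5 ATPase genes lay between -0.08 (Psmc2) and 0.00 (Psmc4), and the median of the 6 was -0.05. Psmc1, Psmc2 and Psmc3 each had a second probe, with log2 fold changes of 0.10, 0.16 and -0.11. The second probe of Psmc2 read 3.78 on control replicate 3 and between 4.23 and 4.44 on the other arrays, whereas the first read 4.47 on that control; these probes were chosen after their values were seen.

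Psmd1 and Psmd2 encode the large scaffold subunits of the base and Psmd4 a ubiquitin receptor. Psmd1 stood at 4.08, 3.91 and 4.31 in sleep fragmented hearts, against 4.22, 4.19 and 4.21 in control hearts. The controls agreed closely and the sleep fragmented arrays lay on both sides of them (log2 fold change -0.11 ± 0.18, adjusted p = 0.945). Psmd2 had a log2 fold change of -0.03 ± 0.18 and Psmd4 one of -0.08 ± 0.22. Psmd4, also chosen after its values were seen, stood at 3.85, 3.64 and 4.06 in sleep fragmented hearts, against 3.58, 4.26 and 3.96 in control hearts, so the controls held both the highest and the lowest array.

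The lid genes had a median log2 fold change of 0.03 over 8 genes, 2 of them negative. The sign turned without sleep fragmented replicate 3 (-0.03), without control replicate 1 (-0.07), with normexp background correction (-0.06) and with median scaling (-0.175). Psmd3, a structural lid subunit with the largest difference among them, stood at 2.75, 2.42 and 2.52 in sleep fragmented hearts, against 2.33, 2.53 and 2.51 in control hearts. The groups overlapped (log2 fold change 0.11 ± 0.18, adjusted p = 0.945). Psmd14, the deubiquitinase, stood at 0.36, 0.58 and 1.08 in sleep fragmented hearts, against 0.64, 0.39 and 0.72 in control hearts; it was chosen after its values were seen. Sleep fragmented replicate 3 was the highest array and replicate 1 the lowest (0.09 ± 0.23, adjusted p = 0.959). The others lay between -0.05 (Psmd6) and 0.07 (Psmd12), with Psmd7 at 0.00, Psmd8 at -0.01, Psmd11 at 0.04 and Psmd13 at 0.03.

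Psmd5, Psmd9 and Psmd10 encode chaperones that assemble the base and are not part of the finished particle. Psmd5 stood at -0.92, -0.51 and -0.41 in sleep fragmented hearts, against -0.47, -0.33 and -0.70 in control hearts. The groups overlapped, with sleep fragmented replicate 1 the lowest array (log2 fold change -0.11 ± 0.21, adjusted p = 0.947). The 2 probes of Psmd9 read 0.09 and -0.11 and those of Psmd10 0.02 and -0.18 as log2 fold changes. Psmd9 was well above background on 2 of the 3 sleep fragmented arrays and on all controls. Over all members, 8 genes had 2 probes above background, and in 5 of them the signs differed, none with a probe beyond 1.5-fold.

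The tissue-restricted genes Psma8 (testis) and Psmb11 (thymus) were well above background on 0 of 6 arrays and have no fold change here. Psmc3ip, a meiotic recombination factor whose symbol the rule takes although it is no subunit, had a log2 fold change of 0.11 ± 0.23 (adjusted p = 0.954).

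Core and regulatory particle genes were set side by side as descriptions. The 14 core genes had a median log2 fold change of -0.12, with 13 negative, and the 17 regulatory genes one of -0.03, with 10 negative. Negative were 41.3% of all genes (median 0.05) and 62.0% of the brightest 25% (median -0.05). Without sleep fragmented replicate 2 the core median was -0.03 with 9 negative, and the regulatory median 0.05 with 5 negative. The median of all genes was then 0.07, and the share of negative genes in that setting is not given. By array, the core median minus the regulatory median (deviations from each gene's mean) was 0.08, -0.01 and -0.07 on sleep fragmented replicates 1 to 3, against 0.12, -0.05 and -0.01 on control replicates 1 to 3, so the groups overlapped in this gap. Of the members, 3 had every sleep fragmented array below every control array (Psma4, Psmb4 and Psmc6), where 3.97% of all genes and 6.87% of the brightest 25% did, and 0 lay above, where 3.65% and 1.73% did. Only 1 member lay below with quantile normalization and in the authors' deposited table, where the share of all genes is not given.

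Arrays of one group also differed among themselves. Sleep fragmented replicate 2 was the lowest of the 6 arrays for 17 of the 34 members, where it was the lowest for 17.1% of all genes and 29.5% of the brightest 25%. It was lowest for 6 of 7 beta ring genes and 5 of 6 ATPase genes, but for 1 of 8 lid genes. The lid genes were lowest on control replicate 1 in 5 of 8, where that array was lowest for 11.9% of all genes and 8.0% of the brightest 25%. Taken as the median deviation from each gene's mean over the arrays, the core lay at 0.08, -0.17 and 0.01 on sleep fragmented replicates 1 to 3, against 0.03, 0.03 and 0.05 on control replicates 1 to 3. On sleep fragmented replicate 2 the base ATPases lay at -0.18, the base non-ATPases at -0.25 and the whole regulatory particle at -0.15. The lid lay at -0.01, -0.07 and 0.09 on the sleep fragmented arrays, against -0.17, 0.09 and 0.03 on the controls. Atrial markers were highest on this same array, sleep fragmented replicate 2; control replicate 2, the next highest, had a core deviation of 0.03, and the part of such tissue in the result was not tested.

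**Figure D2:**
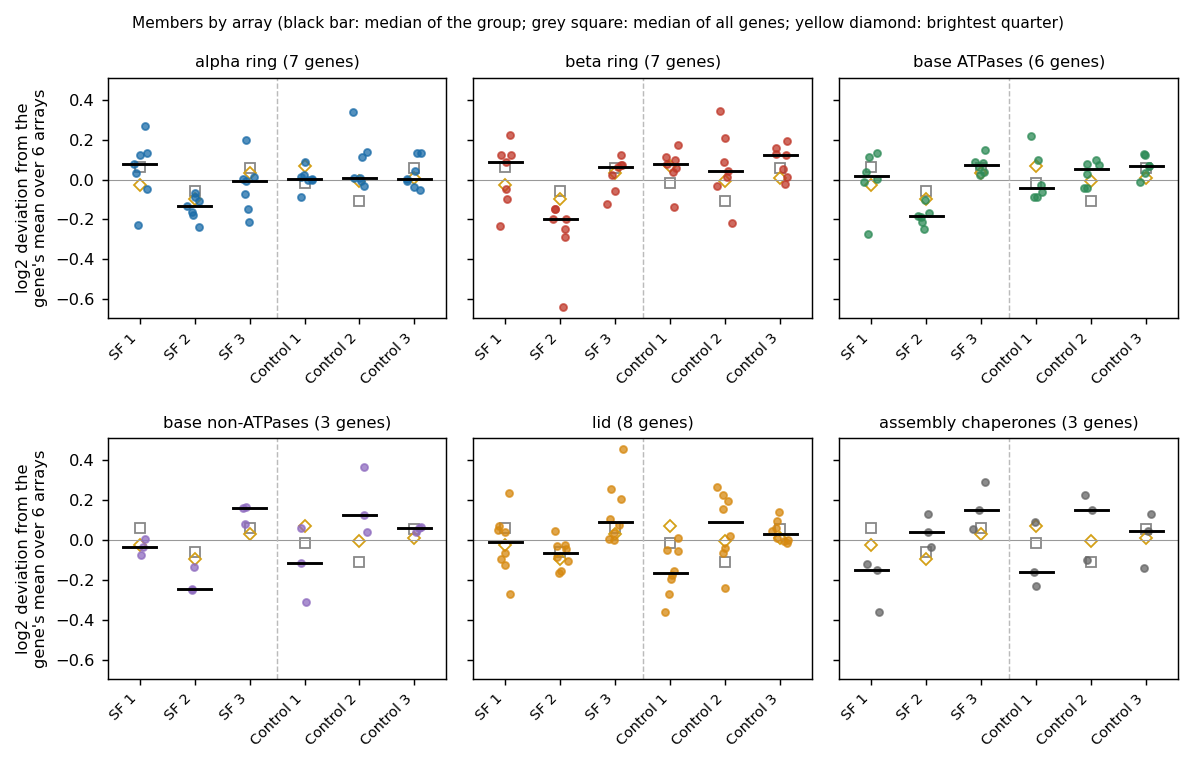
Deviation of each gene from its mean over the 6 arrays (log2, vertical axis), by array and place in the particle; black bars are medians of the group, grey squares medians of all genes and yellow diamonds medians of the brightest 25%. The medians of the core rings and of both base groups are lowest on sleep fragmented replicate 2 (SF 2), and that of the lid on control replicate 1.

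The file headers record 3 barcodes, each shared by 1 array of each group with the same replicate number. What a shared barcode stands for is not stated. Within barcodes 1, 2 and 3 (by replicate number) the median difference of the members, sleep fragmented minus control, was 0.07, -0.22 and 0.01. For the core it was 0.05, -0.23 and -0.10, and for the regulatory particle 0.12, -0.24 and 0.04. For all genes it was 0.09, 0.09 and -0.01, and for the brightest 25% -0.07, -0.08 and 0.02. The median difference of the 34 members was thus negative within barcode 2 alone, and that of the core within barcodes 2 and 3.

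Interferon induces the subunits of the immunoproteasome, which take the place of the catalytic ones: Psmb8 takes the place of Psmb5, Psmb9 that of Psmb6 and Psmb10 that of Psmb7. Psmb8 stood at -0.50, -0.59 and -0.85 in sleep fragmented hearts, against -0.80, 0.66 and -0.32 in control hearts. Psmb9 stood at -0.71, -0.95 and -1.27 in sleep fragmented hearts, against -1.02, -0.11 and -0.83 in control hearts. For both, control replicate 2 was far above the other arrays, and the log2 fold changes were -0.49 ± 0.34 (adjusted p = 0.938) and -0.32 ± 0.27 (adjusted p = 0.938). Psmb10 stood at 1.98, 1.89 and 1.92 in sleep fragmented hearts, against 1.99, 2.40 and 2.18 in control hearts. Its groups did not overlap (-0.26 ± 0.18, adjusted p = 0.938), with control replicate 1 next to the highest sleep fragmented array.

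Whether each counterpart's log2 fold change differed from that of its constitutive gene was tested over 3 pairs, by a two-sided exact permutation test on the difference of the 2 log2 signals within each array. The levels of 2 probes cannot be compared, so only the change between groups in this difference is given. It was -0.38 for Psmb8 against Psmb5 (exact p = 0.6, adjusted 0.9), with SDs within groups of 0.28 in sleep fragmented hearts and 0.77 in control hearts (n = 3 each). It was -0.29 for Psmb9 against Psmb6 (exact p = 0.5, adjusted 0.9), with SDs of 0.17 in sleep fragmented hearts and 0.53 in control hearts. It was -0.02 for Psmb10 against Psmb7 (exact p = 1), with SDs of 0.18 in sleep fragmented hearts and 0.27 in control hearts. The smallest p that 3 arrays against 3 allow is 0.1. Without control replicate 2 the differences were 0.06, 0.00 and 0.13. On that array the summed signal of the 4 lymphocyte markers was 3.37, against 1.52 to 1.95 on the sleep fragmented arrays and 1.41 and 1.42 on the other controls; the part of such cells in the result was not tested.

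**Figure D3:**
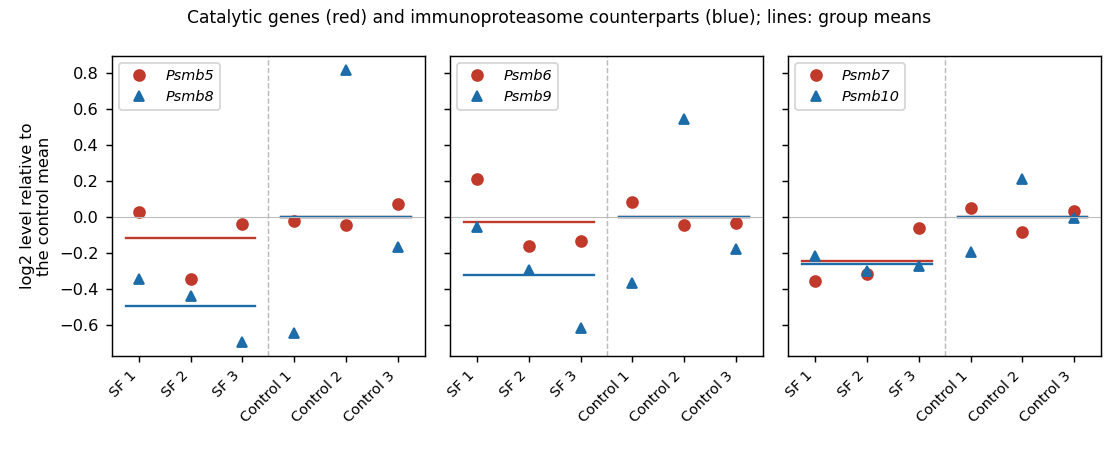
Log2 level of each catalytic gene (red circles) and its immunoproteasome counterpart (blue triangles) on each array, relative to the control mean of the same gene; lines are group means. Psmb8 and Psmb9 stand above all other arrays on control replicate 2, where Psmb5, Psmb6 and Psmb7 do not.

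Genes that work with the proteasome gave 0 of 45 at an unadjusted p under 0.05 in limma, where 2.96% of all genes passed. Their median log2 fold change was 0.00 (46 were listed, and Psmf1 was below the filter). Of the 45, 2 lay below every control array (Psmb10 and Psmg1), where 3.97% of all genes did. Above every control array lay 1 (Nfe2l2), where 3.65% did. Psmg1, a chaperone of alpha ring assembly, stood at 2.54, 2.59 and 2.78 in sleep fragmented hearts, against 2.95, 2.86 and 2.83 in control hearts, without overlap (-0.25 ± 0.17, adjusted p = 0.938). Nfe2l2, the stress-responsive relative of Nfe2l1, stood at 3.80, 3.81 and 3.80 in sleep fragmented hearts, against 3.77, 3.55 and 3.56 in control hearts, also without overlap (0.18 ± 0.17, adjusted p = 0.938). By list, medians were -0.11 for the activators (4 genes), -0.13 for core assembly factors (5), 0.02 for associated subunits and enzymes (11), 0.08 for the regulators of proteasome genes (4), 0.08 for ubiquitin and its activating enzymes (6), -0.05 for muscle ubiquitin ligases (8) and -0.01 for the segregase p97 and its adaptors (4).

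The core median was negative under each scaling tried, while the sign of the regulatory median differed between them. With quantile normalization the median log2 fold change was -0.08 for the core and 0.01 for the regulatory particle, beside 0.00 for all genes. With median scaling it was -0.33 and -0.24, beside -0.16 for all genes. Weighting the arrays or leaving one out also moved the medians. With array weights the core and regulatory medians were -0.05 and 0.16, beside 0.05 for all genes, and the median of the 34 members was 0.04; without sleep fragmented replicate 2 the median of the 34 was 0.02. With array weights 3 of the 34 members reached an unadjusted p under 0.05, all higher in sleep fragmented hearts (Psmd9, Psmd11 and Psmd13), where 21.4% of all genes reached it and 14.9% did so with higher levels.

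**Figure D4:**
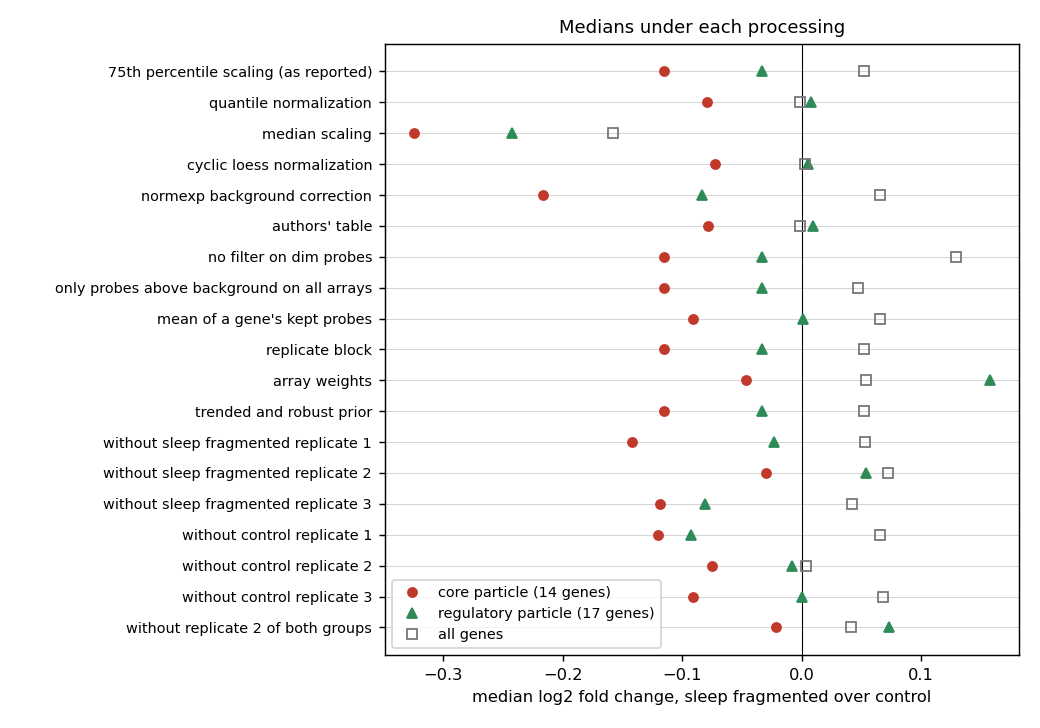
Median log2 fold change (sleep fragmented over control, horizontal axis) of core genes (red circles), regulatory particle genes (green triangles) and all genes (grey squares) under each processing. Median scaling moved all 3 to the left together, and leaving out sleep fragmented replicate 2 brought the core to -0.03.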

How the data were processed

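Total RNA of 6 ventricle samples was hybridised to 1-colour arrays. Per the file headers, the authors' intensity values (processed, median and local background signals) came from Agilent Feature Extraction 11.0.1.1, array design 026655; the submitters' processing notes name 10.5.1.1. Flags for background, saturation and outliers, deposited as other values, are 0 or 1. The authors' deposited table of log2 values, with no normalization named in the labels or headers, was an alternative. It had the same median (5.534) on each array. Its core and regulatory medians, -0.079 and 0.009, were nearly those with quantile normalization (-0.0795 and 0.008). These settings are therefore not read as separate evidence.

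Processed signals were logged (log2), control and outlier spots left out, spots of a probe averaged and each array's 75th percentile subtracted. A probe was kept if all arrays of 1 or both groups read it well above background (25221 probes). Names came from matching RefSeq accessions to a GRCm38.p6 gene table (27234 probes, 69.1%), and the brightest kept probe stood for a gene. The gene table also lists 6 pseudogenes of core subunits, whose transcripts could bind the same probes. The groups were compared with limma 3.58.1 (lmFit, eBayes) in R 4.3.3, two-sided, Benjamini-Hochberg over all kept probes. The number of arrays limits the precision. The scanner files hold no mean signal, so normexp used the median signal.

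Members, lists and motifs were chosen with earlier results of these data known. Values on every array were to be given for the catalytic genes, members without overlap or at a p under 0.05, and the largest difference of each structural group; others are marked as chosen after their values were seen.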

Additional observations from a re-analysis of the deposited data

How the results depend on the processing

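No member had an adjusted p under 0.05 in limma under any of the 18 alternatives; the smallest was 0.151, with array weights. Of 611 values of single genes under the alternatives, 564 moved by no more than their standard error. Over all probes, the count past the adjusted threshold was 53 with array weights, 4 with the replicate block, 3 with normexp and 7 without replicate 2 of both groups, an alternative chosen after seeing the data. Probes at an unadjusted p under 0.05 numbered 735 as reported, 5995 with array weights, 2018 with the replicate block, 1531 with no filter and 1123 with median scaling; leaving out single arrays gave 484 (without control 1) to 2988 (without control 3). With array weights 3 members passed this level, higher in sleep fragmented hearts (Psmd9, Psmd11 and Psmd13), and 4 of 45 related genes did, where 21.4% of all genes passed; 1 related gene did with normexp and without replicate 2 of both groups, and 0 to 1 without single arrays. Members with every sleep fragmented array below the controls numbered 1 with quantile normalization and in the authors' deposited table, and 5 with median scaling and with normexp. They numbered 3 to 7 without single arrays. Above the controls, they numbered 0 to 1 without single arrays and 3 without replicate 2 of both groups. The share of all genes under these settings is not given, and with fewer arrays groups separate more easily. These counts are therefore not read as a trait of the members.

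Median scaling shifted the median of all genes to -0.16, from 0.05. The members kept their distance of -0.09 from it, as they must, since both scalings subtract a constant per array. With other processing this distance was not stable. It was -0.02 with quantile normalization, with cyclic loess and in the authors' deposited table, and -0.014 with array weights. With no filter it was -0.17 and with normexp -0.205. Median scaling gave medians of -0.25 (members), -0.28 (alpha ring), -0.36 (beta ring), -0.26 (ATPases), -0.29 (base non-ATPases), -0.175 (lid), -0.19 (chaperones), -0.33 (core), -0.24 (regulatory particle, 17 negative) and -0.21 (related genes). Normexp gave -0.14 for the members and -0.22 for the core, and cyclic loess -0.15 for the chaperones. Array weights gave 0.065 for the ATPases, 0.13 for the base non-ATPases, 0.21 for the lid, 0.23 for the chaperones and 0.16 for the regulatory particle (2 negative). Without replicate 2 of both groups the medians were -0.029 (beta ring), 0.17 (lid), -0.022 (core, 8 negative) and 0.073 (regulatory particle, 4 negative). Leaving out single arrays gave -0.19 to -0.0074 for the beta ring, -0.215 to 0.062 for the chaperones, and 5 to 15 negative regulatory genes. The share of negative genes over all genes under these settings is not given, and the cause of these shifts was not tested.

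The labels do not say whether the replicate numbers pair the samples. Deviations of same-numbered arrays correlated at 0.087, 0.582 and 0.222 across genes, and 2 of the 3 sleep fragmented arrays correlated better with another number. Deviations centred within 3 arrays are not independent, so these correlations cannot decide whether the samples were paired. Arrays of the same number also share a barcode. With the replicate block the smallest adjusted p of a member was 0.664. With 3 arrays a group, a difference smaller than the distance from the estimate to its interval bound could not reach an unadjusted p under 0.05 in limma. The adjusted threshold is stricter still.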
